A study of Rattus norvegicus with 6 samples.

Results

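Klotho, encoded by Kl, was followed in the kidney left after sub-total nephrectomy (SNx) as the single gene ENSRNOG00000001092, which is 1 of the 23487 genes in the deposited table of estimated counts and 1 of the 13644 that passed a filter on low counts. The gene was picked by this identifier and not by a rule on its measured values. Earlier results of these data were known when it was chosen. That the identifier stands for Kl was taken as given, since the deposited and reference tables used here do not pair the identifier with a symbol. The samples were bulk kidney RNA from 6 rats, 3 labelled SNx and 3 labelled NoOp, taken as healthy controls without an operation. Per the study's methods all were male Wistar Han rats, and SNx consisted of a partial resection of the right kidney followed by removal of the left one, so the SNx libraries come from what remained of 1 kidney. The SNx animals were killed once serum creatinine or proteinuria had passed a set limit rather than at a fixed time, and the study gives the time after surgery as a range over its animals, with no value per library. Ages are not given in the labels. The study's methods describe the controls as not operated, while a figure legend calls them sham, and the label NoOp was followed here. With controls taken as not operated, loss of kidney tissue and the effect of surgery cannot be told apart.

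Klotho is a membrane protein made mainly by the distal convoluted tubule of the kidney, with lower amounts in the proximal tubule. Together with an FGF receptor it forms the receptor complex for FGF23, a hormone from bone that makes the kidney excrete phosphate and lowers the production of active vitamin D. Its extracellular part is also cut from the cell surface and circulates as soluble klotho, and loss of renal klotho is a well known feature of chronic kidney disease.

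The sequence just before the annotated start of Kl is shown because transcription of the measured RNA is annotated to begin directly after it. It is the RefSeq sequence of the 250 bases before the start on the rat build GRCr8, at chr12:5325753-5326002 on the plus strand, which is a later build than the Rn6 transcriptome of the deposited files. Capitals mark each match to the GC box letters GGGCGG on either strand, the letters bound by Sp1 and related factors.

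Kl: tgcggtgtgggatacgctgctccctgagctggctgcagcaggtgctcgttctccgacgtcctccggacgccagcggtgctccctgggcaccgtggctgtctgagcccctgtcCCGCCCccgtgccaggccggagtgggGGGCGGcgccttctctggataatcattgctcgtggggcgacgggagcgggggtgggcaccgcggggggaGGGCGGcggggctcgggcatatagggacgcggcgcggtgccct

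The 3 matches began 138, 112 and 43 bases before the start, and they do not overlap. At least 1 match was found in 30.5% of the 33469 RefSeq promoter windows of the same length, and 3 or more in 7.41%. The window was 73.2% G or C, against a median of 51.2% over all windows, and it held 27 CpG dinucleotides against a median of 5. The letters of the TATA box (TATAAA, 12.9% of windows) and of the CCAAT box (CCAAT, 34.02% of windows) were not found on either strand. No methylation or factor binding was measured in these animals, so the sequence is context for the gene and carries no result.

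Kl RNA was lower in the SNx kidneys, at 53.5% of the NoOp mean once the libraries were scaled. NoOp replicates 1, 2 and 3 held 3308, 3547 and 3600 estimated counts of Kl. The corresponding counts were 1678, 1487 and 2185 for SNx. Every SNx library held fewer Kl counts than every NoOp library, and the highest SNx library lay 1123 counts below the lowest NoOp library. The library totals also differed between the groups, from 11183768 to 13140864 estimated counts in NoOp and from 9572955 to 10707643 in SNx, so the counts were scaled before the groups were compared.

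Counts were scaled with TMM, a trimmed mean of the ratios between libraries, and expressed as CPM, the counts relative to a library of 1e+06 scaled counts. Kl then stood at 322, 281 and 346 CPM in NoOp replicates 1, 2 and 3. The SNx animals, in the same order, had 162, 115 and 231 CPM. The groups did not overlap, and SNx replicate 3 was the SNx animal nearest to the controls. The mean was 316 ± 32.9 CPM in NoOp and 169 ± 58.3 CPM in SNx (SD, n = 3 each). With limma on voom-transformed counts Kl changed by -0.94 on the log2 scale (SE 0.25), with an adjusted p of 0.0232 (Benjamini-Hochberg over all 13644 genes). This is a 1.92-fold lower level, with a 95% interval from 1.28-fold to 2.89-fold. The exact two-sided permutation test on the log2 CPM of Kl alone gave p = 0.1, the smallest value that 3 libraries against 3 can reach. In whole kidney tissue, fewer klotho-producing cells and less Kl RNA in each cell cannot be told apart.

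**Figure D1:**
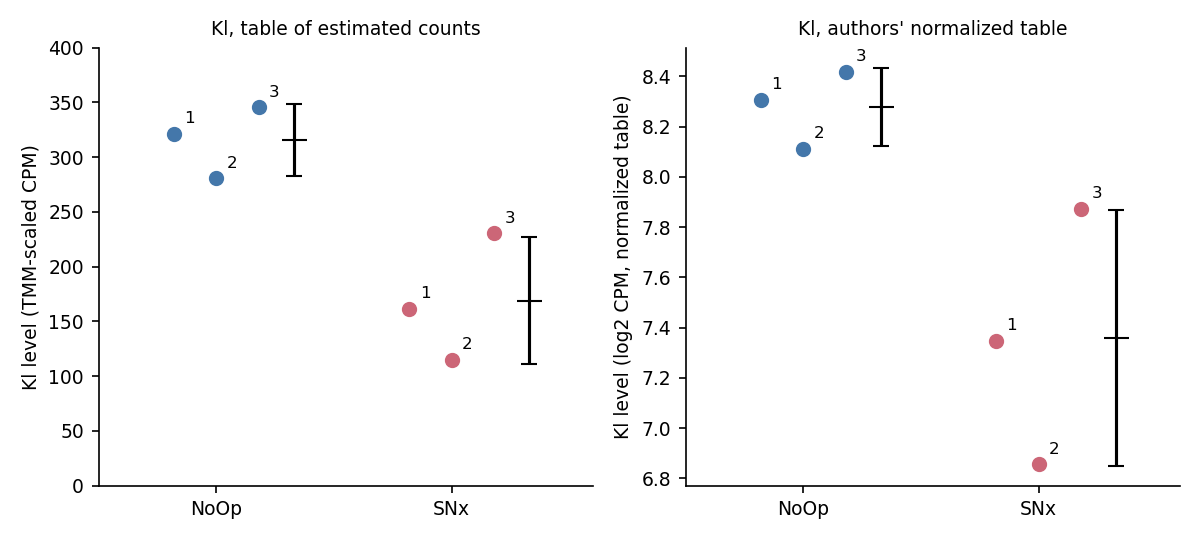
Kl level in each library, as TMM-scaled CPM from the estimated counts (left, linear axis from 0) and as log2 CPM from the authors' normalized table (right). Points are libraries labelled with their replicate number, and the bars beside them give the mean ± SD of 3 libraries. The SNx points sit at 115 to 231 CPM and the NoOp points at 281 to 346 CPM, without overlap in either table.

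Kl was 1 of many genes that fell. Of the 13644 genes tested, 35.8% passed the same threshold, and 16.6% passed it with a lower level in SNx. A lower level with no overlap between the groups was found for 24.5% of genes. Kl ranked 3628 by p-value among all genes tested. Its fall was close to the median of the 2271 genes called lower, -0.93 on the log2 scale, with 1125 of them falling further and 1145 falling less. Over all genes tested 9.70% had a lower log2 fold change than Kl. The standard error of Kl was larger than the median of the genes called lower, which was 0.19.

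**Figure D2:**
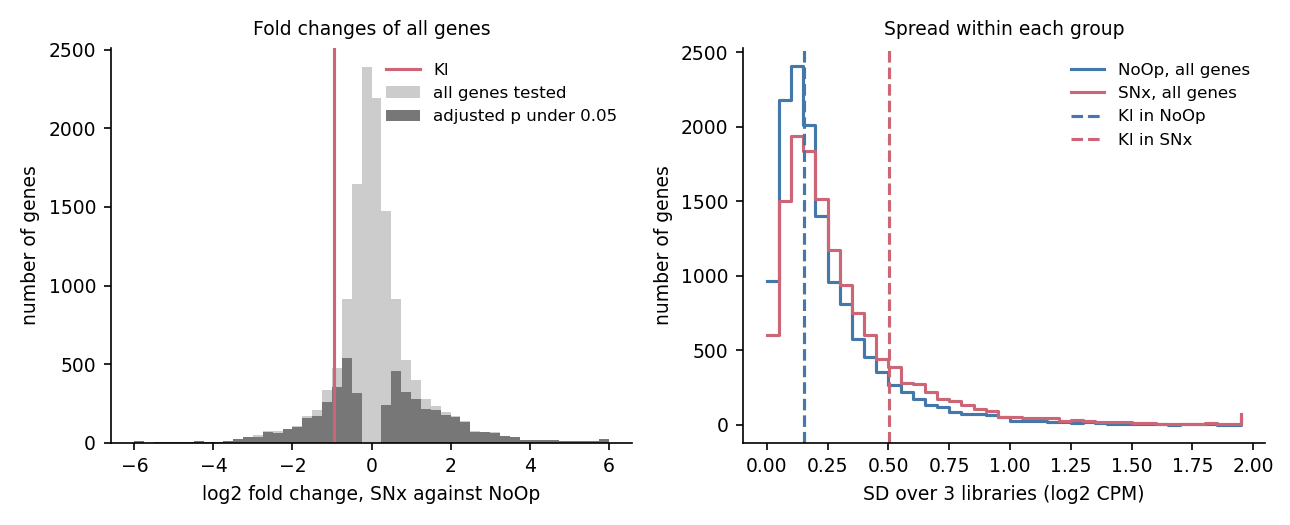
Left, number of genes in each interval of log2 fold change (SNx against NoOp) for all 13644 genes tested and for those with an adjusted p under 0.05, with Kl at -0.94. Right, number of genes by their SD over the 3 libraries of a group on the log2 CPM scale, with Kl at 0.15 in NoOp and 0.50 in SNx. The outermost intervals also hold all values beyond the axis.

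Kl varied more among the SNx animals than among the controls, a difference in spread that was described and not tested. The coefficient of variation of the TMM-scaled CPM was 10.4% in NoOp and 34.5% in SNx, while counting error alone corresponds to 1.67% to 2.59% for a single library at these counts. On the log2 CPM scale the SD of Kl was 0.15 in NoOp, below the median of 0.18 over all genes. In SNx the SD was 0.50 against a median of 0.23, and 82.9% of genes had a smaller SD there. Ordered by level, the libraries ran from NoOp replicates 3, 1 and 2 down to SNx replicates 3, 1 and 2. The step between the groups, from NoOp replicate 2 to SNx replicate 3, was 49.8 CPM. It was smaller than the step of 69.3 CPM between SNx replicates 3 and 1, and smaller than the SD of the SNx group. Over the 9 pairs of an SNx and a NoOp animal, Kl in the SNx animal ranged from 33.2% to 82.3% of the level in the control.

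The 3 SNx libraries were spread out in Kl, with SNx replicate 3 nearest to the controls and SNx replicate 2 farthest from them. Each SNx library was placed on a log2 scale that runs from 0% at the mean of the controls to 100% at the mean of the remaining SNx animals. Kl lay at 37.1% in SNx replicate 3. It lay at 101% in SNx replicate 1 and at 206% in SNx replicate 2. For the genes called lower without the library in question, the median positions were 58.8% in SNx replicate 3 (2545 genes), 95.5% in SNx replicate 1 (1613 genes) and 144% in SNx replicate 2 (1475 genes). The order of the 3 SNx animals in Kl was that of these medians, though each median comes from its own set of genes and its own scale. The remaining SNx animals both chose the genes and set the 100% mark, so the positions are a description. Kl itself was not among the genes called lower without SNx replicate 1. Without SNx replicate 3 Kl changed by -1.21 on the log2 scale (SE 0.18, limma adjusted p = 0.00211). Without SNx replicate 2 the change was -0.71 (SE 0.19, limma adjusted p = 0.0376).

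The call for Kl was not kept in every fit with 1 library left out. It was lost without SNx replicate 1, with a limma adjusted p of 0.0621, without NoOp replicate 1, with 0.0616, and without NoOp replicate 3, with 0.0842. The log2 fold changes in these 3 fits were -0.93, -0.94 and -0.88, against -0.94 with all 6 libraries. Their SEs were 0.30, 0.30 and 0.31, against 0.25. The adjusted p ranged from 0.00195 to 0.0842 over all 15 alternatives. The call was kept without SNx replicates 2 or 3, as given above, and without NoOp replicate 2, at -1.05 on the log2 scale with a limma adjusted p of 0.0478. With all 6 libraries, Kl passed the threshold in each of the 9 other settings tried. Library size without TMM factors gave the smallest fall among these 9, -0.73 with a limma adjusted p of 0.0200. In that scaling the SNx mean was 61.3% of the NoOp mean, and the median log2 fold change of all genes moved from 0.01 to 0.24.

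**Figure D3:**
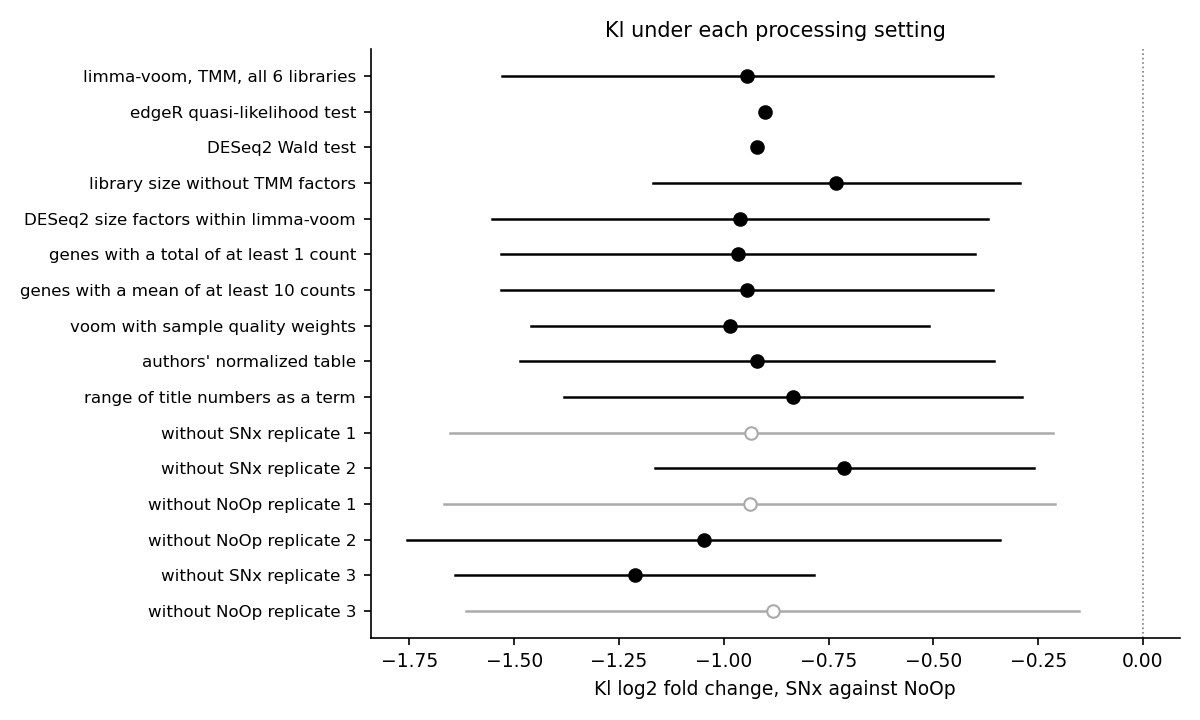
Log2 fold change of Kl, SNx against NoOp, under each processing setting. Points give the estimate and lines the 95% interval of the limma fits, with no interval drawn for edgeR and DESeq2, and open grey points mark the 3 fits with an adjusted p of 0.05 or more. Every estimate lies between -1.21 and -0.71.

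Library titles carry numbers that form 2 ranges, and what the ranges stand for is not given. The first holds SNx replicates 1 and 2 with NoOp replicate 1, and there Kl in SNx averaged 138 CPM, 43.0% of the 322 CPM of the control. The second holds SNx replicate 3 with NoOp replicates 2 and 3, and there Kl was at 231 CPM in SNx, 73.7% of the NoOp mean of 313 CPM. Kl was lower in SNx within both ranges. Each range has only 1 library of one group, so neither was tested on its own. With the range as a term in the limma model, Kl changed by -0.84 on the log2 scale (SE 0.23, adjusted p = 0.0331).

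The authors' normalized table, in which each value is a log2 CPM relative to a scaled library size, was used as a check. Kl had 8.31, 8.11 and 8.42 there in NoOp replicates 1, 2 and 3. The SNx animals, in the same order, had 7.35, 6.86 and 7.87. All 3 SNx values were below all 3 NoOp values, and the order of the 6 libraries was that of the TMM-scaled counts. The group means were 8.28 ± 0.16 and 7.36 ± 0.51 (SD, n = 3 each), and limma with a mean-variance trend gave a log2 fold change of -0.92 and an adjusted p of 0.0222 among the 12135 genes of that table. Since the authors describe length-scaled estimates, the normalized values were also turned back into estimates per gene and set against the whole-number counts. Centred on the median of 9137 genes with at least 100 counts on average, the log2 ratio of the tables for Kl lay between -0.01329 and -0.00643 in NoOp and between 0.00767 and 0.0189 in SNx. The means differed by 0.0227 on the log2 scale (SNx minus NoOp, exact two-sided permutation p of 0.1, the smallest possible), which is small beside the fold change of Kl. RefSeq lists 2 transcripts for Kl, and the files hold 1 value per gene, so the transcripts were not told apart.

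To see which transcripts followed Kl from library to library, the 6 log2 CPM values of each gene were centred on the gene's own mean and compared with those of Kl by Euclidean distance, among the 12494 other genes whose average log2 CPM was 1 or more. The nearest was ENSRNOG00000046109, at a distance of 0.19 where the length of the Kl profile itself is 1.38, with a Pearson r of 0.99 over the 6 libraries. Its TMM-scaled levels were 90.8, 80.5 and 85.6 CPM in NoOp replicates 1, 2 and 3. They were 45.8, 31.7 and 59.6 CPM in the SNx animals in the same order. It was lowest in SNx replicate 2, and SNx replicate 3 was its SNx library nearest to the controls, an order that the choice by likeness to Kl favours. Its log2 difference between the groups, -0.97 (SE 0.21), is a description for the same reason.

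The second was ENSRNOG00000019992, at a distance of 0.21, a gene of low level with 66, 74 and 79 estimated counts in NoOp replicates 1, 2 and 3. The SNx animals, in the same order, had 40, 32 and 48 counts. Its log2 difference was -0.88 (SE 0.30), and it did not pass the threshold (limma adjusted p = 0.0530). Within a wider distance of 0.5 lay 232 of the 12494 genes (1.86%), 229 of them among those with an adjusted p under 0.05, as a choice by likeness to Kl would bring. The 6 libraries had exactly the order of Kl in 164 genes (1.31%). The correlation is a description over 6 libraries that differ by group, and what either gene encodes was not looked up here.

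**Figure D4:**
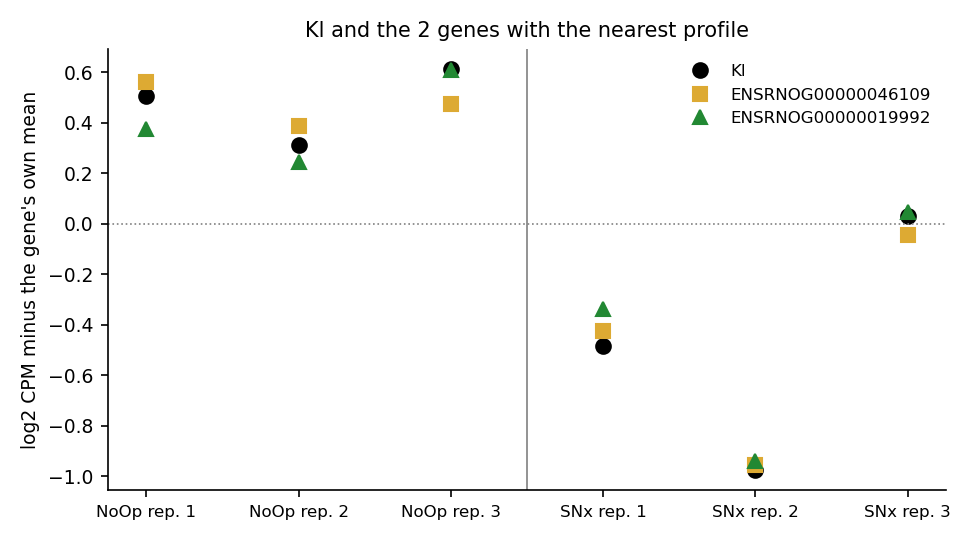
Log2 CPM of Kl and of the 2 genes with the nearest profile in each library, minus each gene's own mean over the 6 libraries. In all 3 genes the NoOp libraries (left of the line) lie above the SNx libraries, SNx replicate 2 is the lowest and SNx replicate 3 lies highest among the SNx libraries.

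The partners of klotho were not followed here. Genes carry Ensembl identifiers in these files, and none of the 23487 identifiers could be matched to a symbol with the reference tables. The study's supplementary lists pair part of the identifiers with symbols, but in the copies read here only for genes ranked highest in its own tests, and they were not used for names. FGF receptors, the renal phosphate and calcium transporters, the enzymes of vitamin D and markers of the distal tubule were therefore not analysed here. For the same reason neither the labelled tissue nor the cell types in it were checked against marker genes, and the level of Kl was not set against other distal tubule transcripts.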

How the data were processed

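Strand-specific, paired-end RNA sequencing of ribosomal RNA-depleted kidney RNA was analysed in 3 SNx and 3 NoOp rats, grouped by the treatment label and numbered in order of deposition. The authors quantified transcripts with Salmon (version not given in the sources used here) on the Rn6 transcriptome and summarised them with tximport. They deposited estimated counts per gene, as whole numbers, for 23487 genes, 5584 of them with 0 throughout, and normalized log2 CPM values from voom for 12135 genes. The 12 deposited single-library files held the same values. RNA integrity varied widely between the samples of the study per its methods, and no value per library was used here. Whether RNA integrity differed between the groups, or bears on the level of Kl, was therefore not tested.

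Low genes were removed with filterByExpr (edgeR 4.0.16, minimum count 10, minimum total 15). Libraries were scaled with TMM, and voom and limma 3.58.1 (R 4.3.3) were fitted with no term beside group, with two-sided tests and Benjamini-Hochberg adjustment over all genes at 0.05. Log2 CPM for spread and likeness used a prior count of 2. The limma model was tested on simulated data. Alternatives included edgeR's quasi-likelihood test and DESeq2 1.42.0. The methods name 3 rats per group, and each library was taken as 1 animal.

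The gene and the lists were chosen with earlier results of these data known. The rule for naming genes covered Kl, the members of lists of the FGF23-klotho pathway and of cell type markers, and the 5 genes with a symbol and the nearest profile to Kl. With 0 of 23487 identifiers matched to a symbol by the reference tables, the lists were not analysed, the clause on symbols was dropped and the 2 nearest genes are named by identifier.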

Additional observations from a re-analysis of the deposited data

How the results depend on the processing

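Kl was lower in SNx in all 15 other settings of the tools, filters, scaling and libraries and passed the threshold in 12 of them. Leaving out 1 library at a time moved its log2 fold change from -1.21 (without SNx replicate 3) to -0.71 (without SNx replicate 2). The call was lost without SNx replicate 1 (-0.93), NoOp replicate 1 (-0.94) and NoOp replicate 3 (-0.88). The difference within the second range of title numbers, added after the data were seen, was -0.43, and -1.24 within the first. The cause was not tested. The count of genes called over the whole table was 4891, with a range of 2857 to 5764 on leaving out 1 library (lowest without NoOp replicate 3, also low without NoOp replicate 2 at 3124). Of these 2271 were lower in SNx, 1402 with library size without TMM factors, which shifts every fold change upwards by construction, and from 1360 (without NoOp replicate 3) to 2563 (without SNx replicate 3) on leaving out 1 library, with 1481 without SNx replicate 2. The share of calls that were higher in SNx was 70.7% with library size alone. The 5 genes nearest to Kl were also the 5 nearest with library size alone, and 0 of them were among the 5 with the highest Pearson correlation. The counts of pathway genes and Kl relative to distal tubule markers were not run, since the reference tables matched no identifiers. No paired analysis was made, since the labels do not pair any SNx library with a NoOp library. The counting error of Kl was at most 2.59% for a single library, worked out from the counts alone. It does not cover the uncertainty of the quantification. Library totals were lower in SNx than in NoOp, and an effect of depth on Kl was not tested.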
